A study of Mus musculus with 8 samples.

Results

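Day 2 blastoids made with an siRNA against Nr1h2 (siNr1h2) were compared with day 2 blastoids made with a non-targeting siRNA (siNT), and the comparison rests on these 2 of 8 libraries, 1 on each side, chosen by their labels. Blastoids are aggregates of stem cells used as a model of the blastocyst, the embryo just before implantation. The other 6 libraries held embryonic stem cells (ESC) and expanded potential stem cells (EPSC), each untreated or given the LXR agonist T0901317 (T09) for 3 days, and Type I and Type III blastoids picked on day 5 and labelled as coming from T09-treated EPSC. Both siRNA libraries came from the E14 mouse ESC line, which had been passaged 5 times as EPSC in LIF with CHIR99021, PD0325901, JNK Inhibitor VIII, SB203580, A-419259 and XAV939. The EPSC were transfected with DharmaFECT1, seeded into microwells and harvested 48 hours later, after a first medium with FGF4, heparin, CHIR99021 and Y-27632 and a second with FGF4, heparin, CHIR99021, BMP4 and A83-01. The labels list no T09 for this pair, give no sequence for either siRNA, and describe 1 cell line. Each library pools many aggregates, and cells that took up little siRNA cannot be told apart from the rest.

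Nr1h2 encodes LXR beta, a nuclear receptor that pairs with a retinoid X receptor (RXR) on DNA and is activated by oxidised cholesterol. With ligand, LXR turns on genes that export cholesterol and make fatty acids. Without ligand it can hold the same genes down through corepressors, so loss of the receptor can raise or lower a target. Its sister gene Nr1h3 encodes LXR alpha, which is known for its role in liver and macrophages.

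LXR binds pairs of half-sites spaced by 4 bases, and 3 promoters are shown because their genes are LXR targets measured in every library and hold such a pair within 250 bases before the start. The search used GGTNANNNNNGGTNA on both strands of the 250 bases before and 50 after each start in the RefSeq table, build GRCm38.p6, and this loose form of the site was chosen knowing the Abca1 element. It was found in 0.718% of 32851 promoters, and in those of 3 of the 14 LXR targets that had a promoter in the table. The stricter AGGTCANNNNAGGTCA was in 5 promoters (0.0152%). Capitals mark the match, which lies on the opposite strand in all 3, and each stretch reads 5′ to 3′ on the gene's strand with up to 40 bases on each side, all before the start.
Abca1 (chr4:53159908-53160002, minus strand): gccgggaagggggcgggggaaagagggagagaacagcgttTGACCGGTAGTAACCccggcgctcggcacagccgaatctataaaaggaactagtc
Fasn (chr11:120824718-120824797, minus strand): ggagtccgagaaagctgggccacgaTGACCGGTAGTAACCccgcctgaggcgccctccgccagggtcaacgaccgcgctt
Srebf1 (chr11:60210599-60210693, minus strand): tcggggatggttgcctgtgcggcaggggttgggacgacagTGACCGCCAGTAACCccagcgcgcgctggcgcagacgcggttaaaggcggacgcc
Abca1 and Fasn share the same matched letters, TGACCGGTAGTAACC. The Abca1 match begins 67 bases before the start, that of Srebf1 182 and that of Fasn 225. A match describes letters and shows no binding.

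Nr1h2 was lower in the siNr1h2 library, as its label states. It had 989 counts there and 2120 in siNT. After scaling for depth and composition (CPM with TMM factors) these were 37.7 and 53.9 CPM, so the siNr1h2 library held 70.0% of the siNT level. The log2 ratio of siNr1h2 over siNT was -0.51, with a 95% exact interval of -0.62 to -0.40. With 1 library a side there is no p-value and no replicate error, and each interval covers counting error only. The siNT level was close to the 52.6 CPM of Type I and the 52.7 of Type III, and lower than the 77.5 of EPSC from which the aggregates were made. The siNr1h2 level was the lowest of the 8 libraries, and its interval touched none of the others.

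The partners of the receptor were at like levels on both sides. Nr1h3 was counted too few times for a comparison, with 32 counts in siNr1h2 and 36 in siNT, or 1.22 and 0.91 CPM, and its interval ran from -0.32 to 1.14. Rxra stood at 36.4 CPM in siNr1h2 and 36.5 in siNT, and Rxrb at 51.7 and 49.4. Their log2 intervals ran from -0.12 to 0.12 and from -0.03 to 0.17. Rxrg was at 4.12 and 4.24 CPM. Of 15 counted coregulator genes, 10 were above 0 on the log2 scale and the median was 0.06, beside 46.3% of all genes above 0. These genes have long transcripts, with a median of 7868 bases, and among the longest 1 in 5 of all genes, from 5384 bases, 60.0% were above 0. The acetyltransferase gene Crebbp was higher by 0.28 [0.17, 0.39] and the coactivator gene Ncoa2 by 0.22 [0.12, 0.32]. The corepressor gene Ncor1 was at 0.05 [0.01, 0.09].

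**Figure D1:**
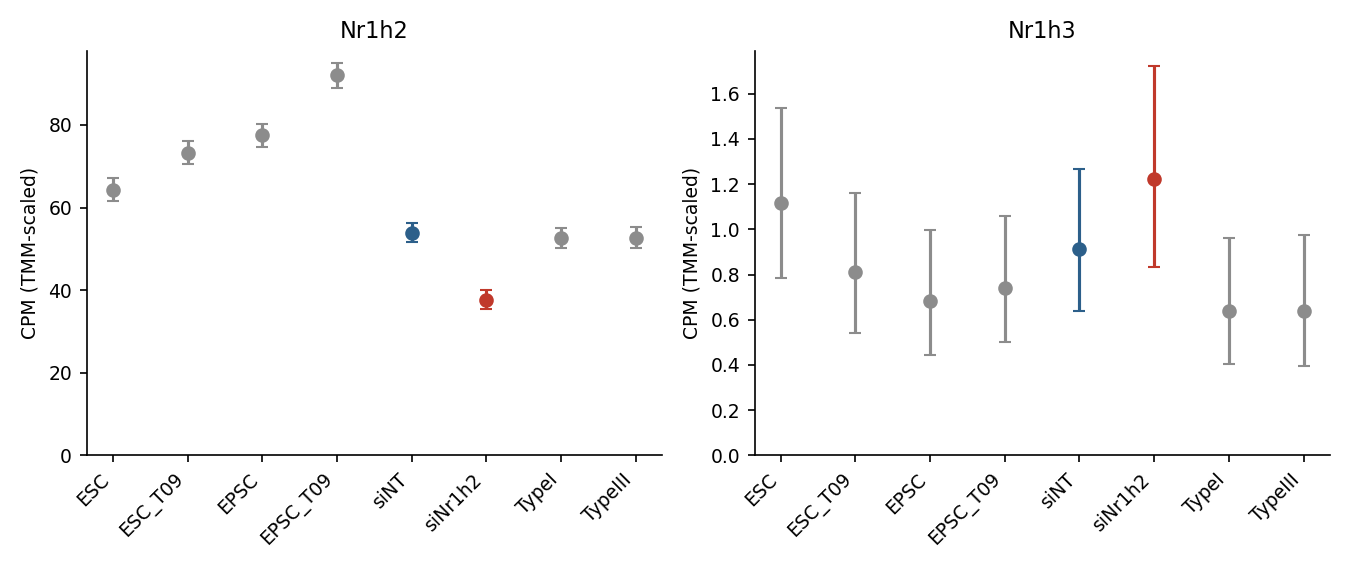
TMM-scaled CPM of Nr1h2 (left) and Nr1h3 (right) in each of the 8 libraries, with 95% exact Poisson intervals for counting error. Nr1h2 is lowest in siNr1h2, at 37.7 CPM, and Nr1h3 stays at or under 1.22 CPM everywhere with overlapping intervals.

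Few genes differed by as much as 2-fold, and Nr1h2 was not among them. A gene was called when it had at least 100 counts in 1 of the 2 libraries, a ratio of at least 2-fold and an interval that excluded a ratio of 1. Of 11503 genes with that many counts, 32 were called, which is 0.278%, with 9 higher in siNr1h2 (0.0782%) and 23 lower (0.2%). Past 1.5-fold there were 229 (1.99%), 91 higher (0.791%) and 138 lower (1.2%). The same 2-fold rule called 1.29% of genes for T09 in EPSC, 1.12% for T09 in ESC and 3.1% for Type I over Type III. The median log2 ratio over all genes was -0.01, and 46.3% of genes were above 0.

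Depth shapes that short list. The siNr1h2 library was the shallowest of the 8, at 24666260 counts against 36959392 in siNT, and the rest ran up to 40781415. A gene near 100 counts therefore more often reached the minimum through siNT, which admits it when it is lower in siNr1h2. This holds for all 23 lower calls. They had at most 281 counts in siNT and under 100 in siNr1h2, so each passed the minimum through siNT alone. With siNT thinned to the siNr1h2 depth the lower calls dropped to 6 and the higher calls became 12. Of the 32 called genes, 30 had under 300 counts in both libraries. The SD of the log2 ratio over genes was 0.41 at 100 to under 200 counts, 0.18 at 500 to under 1000 and 0.10 at 2000 to under 5000.

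**Figure D2:**
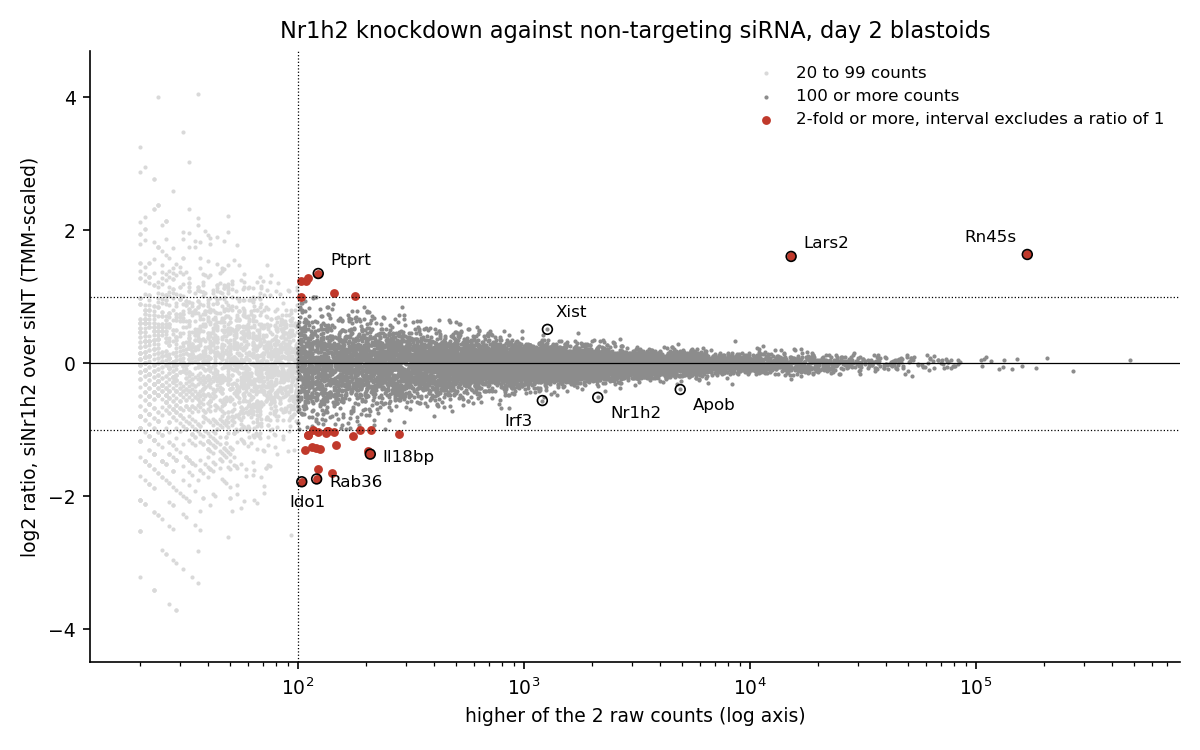
Log2 ratio of siNr1h2 over siNT for each gene with at least 20 counts, against the higher of its 2 raw counts on a log axis. Red points are the genes called, dotted lines mark 100 counts and 2-fold, and the cloud narrows as counts rise, with Nr1h2, Irf3, Rn45s and Lars2 outside it.

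Rn45s and Lars2 were the only called genes with more than 300 counts. Rn45s is the precursor of ribosomal RNA, and Lars2 encodes the mitochondrial leucyl-tRNA synthetase. Rn45s had 168589 counts in siNr1h2 and 81434 in siNT, or 0.684% and 0.220% of all counts. In the other 6 libraries its share was between 0.126% and 0.220%. Lars2 had 15206 counts in siNr1h2 and 7495 in siNT, or 580 and 190 CPM, and between 114 and 225 CPM elsewhere. Both log2 ratios were large, 1.64 for Rn45s and 1.61 for Lars2, and only the siNr1h2 library stood apart. How ribosomal RNA was removed is not given in the sources used here, and the part that ribosomal RNA carry-over has in other ratios was not tested. Leaving both genes out of the scaling left the calls at 9 and 23.

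Among the 6540 genes with at least 1000 counts, Nr1h2 had the second lowest ratio, and only 4 genes were as far from 0 in either direction: Irf3, Nr1h2, Lars2 and Rn45s. The genes at both ends of this set were named after their values were seen. Irf3, a transcription factor of the interferon response, was lowest, with 20.8 CPM in siNr1h2 against 30.6 in siNT and a log2 ratio of -0.56 [-0.71, -0.42]. It ran from 26.6 to 40.2 CPM in the other 6 libraries, so siNr1h2 lay below all of them. Snx11, a sorting nexin gene, followed at -0.51 [-0.65, -0.36], then the DNA polymerase iota gene Poli at -0.48 and Depdc1a at -0.46. Rcan3, Dgkq, Zfp180, Fcho1, Lypla2, Ly6e and Mri1 lay between -0.45 and -0.41.

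At the higher end of that set, behind Rn45s and Lars2, stood Xist, the noncoding RNA of X inactivation. It was at 46.0 CPM in siNr1h2 and 32.3 in siNT, a log2 ratio of 0.51 [0.40, 0.63], against 1.52 in EPSC and 14.3 to 15.8 at day 5. Both day 2 libraries were thus above the other 6. Plec and Ttn, which encode the giant proteins plectin and titin, were higher by 0.37 and 0.35, and the ectonucleotidase gene Nt5e by 0.43. Arid4a, Trove2, Spata13, Gen1 and Ube2g2 lay at 0.34 or 0.35.

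Long transcripts leaned higher in siNr1h2. With genes split into 5 equal groups by their longest annotated transcript, the median log2 ratio was -0.03 in the shortest group and 0.03 in the longest, whose transcripts began at 5384 bases. In the longest group 60.0% of genes were above 0, and in the other 4 between 40.9% and 45.8%. Plec, Ttn and Xist have transcripts of 15455, 106824 and 17946 bases, and Irf3 and Nr1h2 of 2031 and 1999. Not all the higher genes named above are in the longest group. The higher genes Ube2g2 and Nt5e have 2031 and 3995 bases. The lower genes Dgkq and Rcan3 have 5345 and 5111, which puts them in the next longest group, with 45.8% above 0. The part of transcript length in these ratios was not tested.

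The most clearly lower genes with 100 or more counts were thinly counted, and reached that minimum through siNT alone. Rab36, a small GTPase gene, had 23 counts in siNr1h2 and 121 in siNT, or 0.877 and 3.07 CPM, a log2 ratio of -1.74 [-2.52, -1.16]. It stood at 0.628 CPM in EPSC and at 6.69 and 4.23 at day 5. Ido1, which degrades tryptophan, had 19 counts against 104, a ratio of -1.78 [-2.66, -1.15], and was highest in siNT of all 8 libraries. Tsga10 and Wdr17 followed at -1.65 and -1.60.

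Il18bp, a secreted inhibitor of interleukin 18, had 53 counts in siNr1h2 and 209 in siNT, a log2 ratio of -1.37 [-1.86, -0.95]. Zc3h12a, an RNase that cuts inflammatory messages, had 54 against 205, a ratio of -1.31 [-1.80, -0.90]. Tnfaip3, a deubiquitinase that restrains NF-kB, lay at -0.60 [-0.94, -0.27]. The list of inflammation ligands and receptors had 6 counted members of 16, with a median of -0.05 and 2 above 0. Nfkbia, the inhibitor of NF-kB, was at 0.14 with an interval of -0.02 to 0.30. Il6, Il1a, Il1b, Ccl2 and Cxcl2 had no count on either side.

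The remaining leading lower genes were Elfn1, Wnk4, Adgrg1, Hoxa7, Astn1, Mras, Jakmip1, Ap5s1 and Fbp1, from -1.30 to -0.98. Jakmip1 was the best counted of all 23 lower calls, with 89 counts in siNr1h2 and 281 in siNT. Fbp1, the gluconeogenic fructose bisphosphatase gene, was lower but just short of 2-fold. The calls nearest the threshold were Sel1l3, at -1.003, and Chac1, at -1.006. Just short of it were Sema6b, at -0.995, and Mfsd6, at -0.993. Fbp1, Sema6b and Mfsd6, like the lower calls, reached the count minimum in siNT alone.

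After Rn45s and Lars2, the leading higher gene was Ptprt, a receptor tyrosine phosphatase gene, with 123 counts in siNr1h2 and 71 in siNT. These were 4.69 and 1.80 CPM, a log2 ratio of 1.35 [0.95, 1.82], against 0.916 in EPSC and 5.04 and 4.99 at day 5. Pde9a, which degrades cyclic GMP, was higher by 1.28 and Fbxo16 by 1.24, and Prr7 by 1.05. Coro2a, Pla2g7, Sft2d3, Pou2f2, Trim68, Itgb3, Ppef2, Fam120c and Trim45 lay between 0.84 and 1.00. Of these, Coro2a and Pla2g7 were just past 2-fold and Sft2d3 and Pou2f2 just short of it. Ptprt, Pde9a, Fbxo16, Pla2g7, Sft2d3, Pou2f2, Trim68, Itgb3 and Ppef2 reached the count minimum in siNr1h2 alone, where they were higher.

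The known LXR targets were not lower as a list. Of 22, 17 had 100 counts in 1 of the 2 libraries. Their median log2 ratio was 0.05, 9 lay above 0 and 8 below, 0 passed 1.5-fold, 5 intervals lay above a ratio of 1 and 2 below. Over all genes tested the intervals lay above in 17.2% and below in 21.8%.

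Abca1, the transporter that exports cholesterol, had 133 counts in siNr1h2 and 134 in siNT in spite of the shallower siNr1h2 library. Scaled, it was at 5.07 and 3.40 CPM, a log2 ratio of 0.57 [0.22, 0.93], and so was the member furthest from 0, in the higher direction. Abca1 was lowest in siNT of all 8 libraries, and its siNr1h2 value was close to the 5.38 CPM of Type III. It was at 18.3 CPM in EPSC and 51.0 in ESC, 211 and 340 after T09, and 207 in Type I. Abcg1, its partner in cholesterol export, was at 3.24 CPM in siNr1h2 and 2.95 in siNT on 85 and 116 counts, with an interval of -0.28 to 0.55. Mylip, a ubiquitin ligase gene, was at 5.83 and 7.04 CPM, a log2 ratio of -0.27 with an interval of -0.56 to 0.02. The 3 targets with the sharpest response to T09 thus pointed in different directions, and 2 of their intervals included no difference.

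The lipogenic targets were well counted and stood close on both sides. Srebf1, the master regulator of lipogenesis, was at 71.3 CPM in siNr1h2 and 67.1 in siNT. Scd1 and Scd2, the stearoyl-CoA desaturase genes, stood at 167 and 162 CPM and at 756 and 709 CPM. Fasn, the fatty acid synthase gene, was at 650 and 619, and Acaca, the acetyl-CoA carboxylase gene, at 133 and 125. All 5 log2 ratios lay between 0.05 and 0.09. The phospholipid-remodelling gene Lpcat3 was at 0.06, and the ubiquitin ligase gene Rnf145 at -0.02. Depth is not the limit for Scd2, whose interval was 0.07 to 0.12, or for Fasn, with 0.04 to 0.10. Apoe, the apolipoprotein gene, was lower by a small amount, -0.12 [-0.14, -0.09], which is also inside that range. Arl4c, with fewer counts, was lower too, at -0.20 [-0.33, -0.07].

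Abca1, Fasn and Srebf1, whose promoters are printed above, lay at 0.57, 0.07 and 0.09. The 51 counted genes with that motif in a promoter had a median log2 ratio of -0.01, 23 lay above 0, and 0 passed 2-fold, beside 46.3% above 0 and 0.278% past 2-fold among all genes.

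The genes that answered T09 were chosen from the 4 ESC and EPSC libraries alone, so the choice used neither library of the knockdown pair. At least 2-fold higher with T09 in both states were Abca1, Abcg1, Mylip, Scd1, Scd2 and Srebf1, all of which are also in the LXR target list. The single states called 0.276% of genes higher and 1.01% lower at 2-fold in EPSC, and 0.514% and 0.604% in ESC. The median log2 ratio of the 6 genes higher in both states was 2.69 for T09 in EPSC and 2.13 in ESC. In siNr1h2 over siNT it was 0.09, with 5 of 6 above 0. Of 4 genes at least 2-fold lower with T09, namely Eif4e1b, Hhip, Nhsl2 and Npr3, Nhsl2 alone had 100 counts in the pair, at 0.23.

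At 1.5-fold, 30 genes were higher with T09 in both states and 26 of them were counted in the pair. Each state alone called more, 1.3% of genes higher and 4.25% lower in EPSC, and 2.72% and 2.57% in ESC. The 26 counted genes that were higher in both states had a median of 0.03 in siNr1h2 over siNT, with 14 above 0. Nkx6-2, a homeobox gene, was furthest from 0 on the higher side at 0.71 [0.32, 1.12] on 112 and 102 counts, and Grb7, a signalling adaptor gene, on the lower side at -0.39 [-0.50, -0.27] on 916 and 1799. Fgf17 lay at 0.44, H2-K1 at -0.31 and Bmp4 at -0.21. Lower with T09 at 1.5-fold in both states were 50 genes, and of their 38 counted members 29 lay above 0 in siNr1h2 over siNT, beside 46.3% of all genes. The median was 0.10, with 12 intervals above a ratio of 1, 4 below and the rest on both sides of it, beside 17.2% above and 21.8% below among all genes. Ttn, the ryanodine receptor genes Ryr2 and Ryr3, and the myosin gene Myh13 were at 0.35, 0.40, 0.44 and 0.45. The 4 with an interval below were Pdgfc, at -0.43, Dab2, at -0.24, Mttp, at -0.14, and Efnb2, at -0.12. Of these, Pdgfc reached the count minimum in siNT alone, where it was higher. These 38 genes had long transcripts, with a median of 5426 bases against 2910 for the 26 higher genes, and the part of length in their ratios was not tested.

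**Figure D3:**
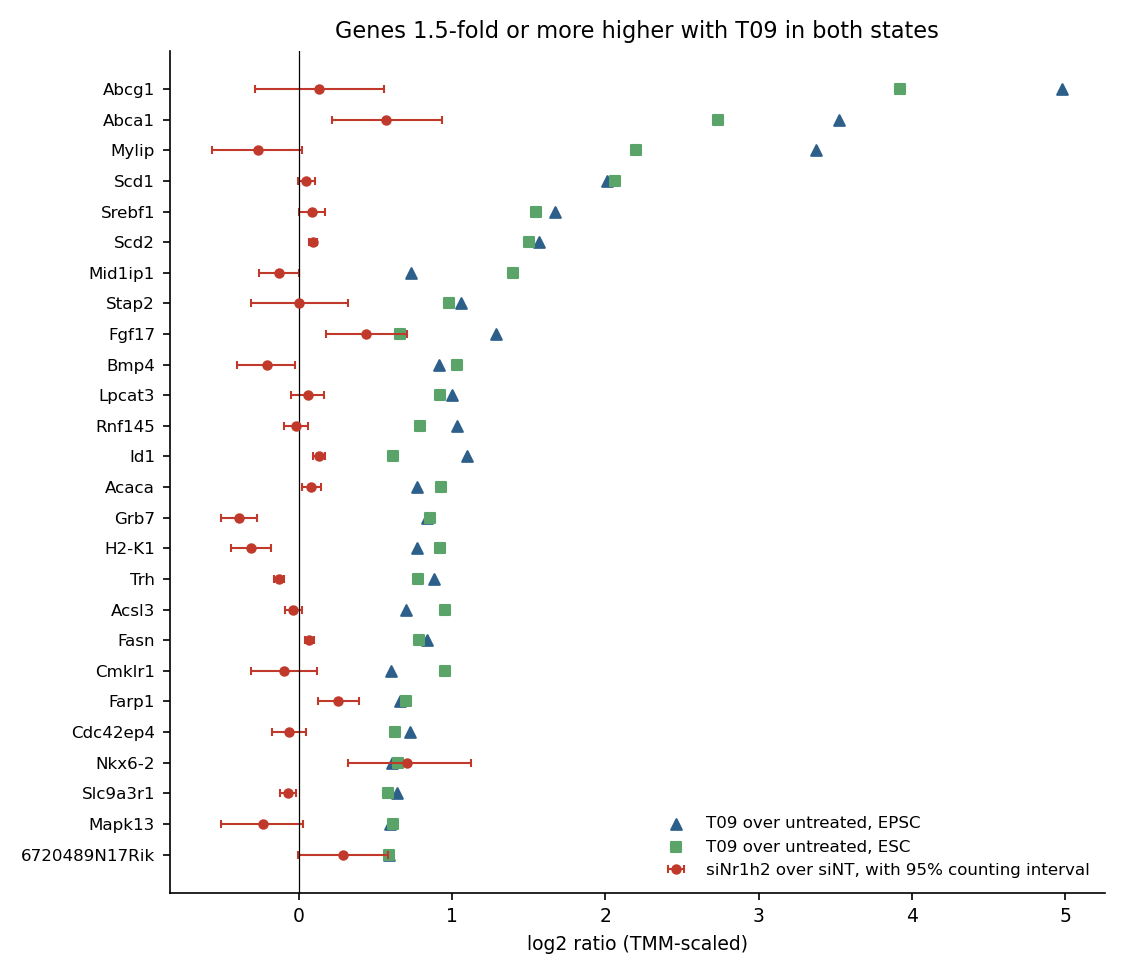
Log2 ratios of the 26 counted genes that were at least 1.5-fold higher with T09 in both EPSC (triangles) and ESC (squares), with siNr1h2 over siNT as red points and 95% counting intervals. The T09 ratios reach 4.98 for Abcg1 while the red points stay between -0.39 and 0.71, on both sides of 0.

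Lipid synthesis as a whole lay close to no difference. Of 22 counted fatty acid synthesis genes, 9 were above 0 and the median was -0.02. As many intervals lay above a ratio of 1 as below, 5 each, beside 17.2% and 21.8% of all genes. The elongase gene Elovl1 and the citrate carrier gene Slc25a1 were lower, at -0.24 [-0.38, -0.10] and -0.23 [-0.30, -0.15]. Gpam, which starts triglyceride synthesis, was higher at 0.18 [0.06, 0.31].

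Of 29 cholesterol synthesis and uptake genes, 23 were below 0, with 9 intervals below a ratio of 1 and 1 above, beside 21.8% and 17.2% of all genes, and the median was -0.06. Insig1, which holds back sterol synthesis, was at -0.21, Sc5d at -0.20 and Sqle and Fdps at -0.16 each. Idi1 was the 1 member with an interval above a ratio of 1, at 0.12 [0.04, 0.20]. Plin2, the lipid droplet coat gene, was higher at 0.26 [0.13, 0.40] among 16 counted genes of fatty acid oxidation and PPAR targets, whose median was -0.01.

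Both day 2 libraries, which are labelled as blastoids, held marker genes of the blastocyst lineages. The 7 pluripotency markers summed to 2056 CPM in siNr1h2 and 2129 in siNT against 4248 in EPSC. The 7 primitive endoderm markers summed to 727 and 801 against 37.8 in EPSC, and all 7 had 100 counts on both sides. The 9 trophectoderm markers summed to 256.8 and 265.5 against 97.6, but Elf5 and Krt7 were under 100 counts. Fibroblast markers were near 0, at 5.87 and 6.61 CPM summed over 7 genes, with Postn at 0 in both. The 7 blood and endothelial markers summed to 94.9 and 87.4 CPM, nearly all from Pecam1, with Ptprc, Hbb-bt and Hba-a1 at 0. In these bulk libraries fewer cells of a type and less RNA per cell cannot be told apart.

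Of the medians of 39 gene lists, 34 lay within 0.1 of 0 on the log2 scale, 1 was above 0.1 and 4 were below -0.1. The furthest, -0.95, was that of the replication-dependent histone list, which had 1 counted member of 20, Hist1h4i, with 39 counts in siNr1h2 and 115 in siNT. Hist1h4i thus reached the count minimum in siNT alone, where it was higher. In 38 lists 0 members passed 2-fold, the exception being Chac1 in the ATF4 list, and in 26 lists 0 members passed 1.5-fold.

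**Figure D4:**
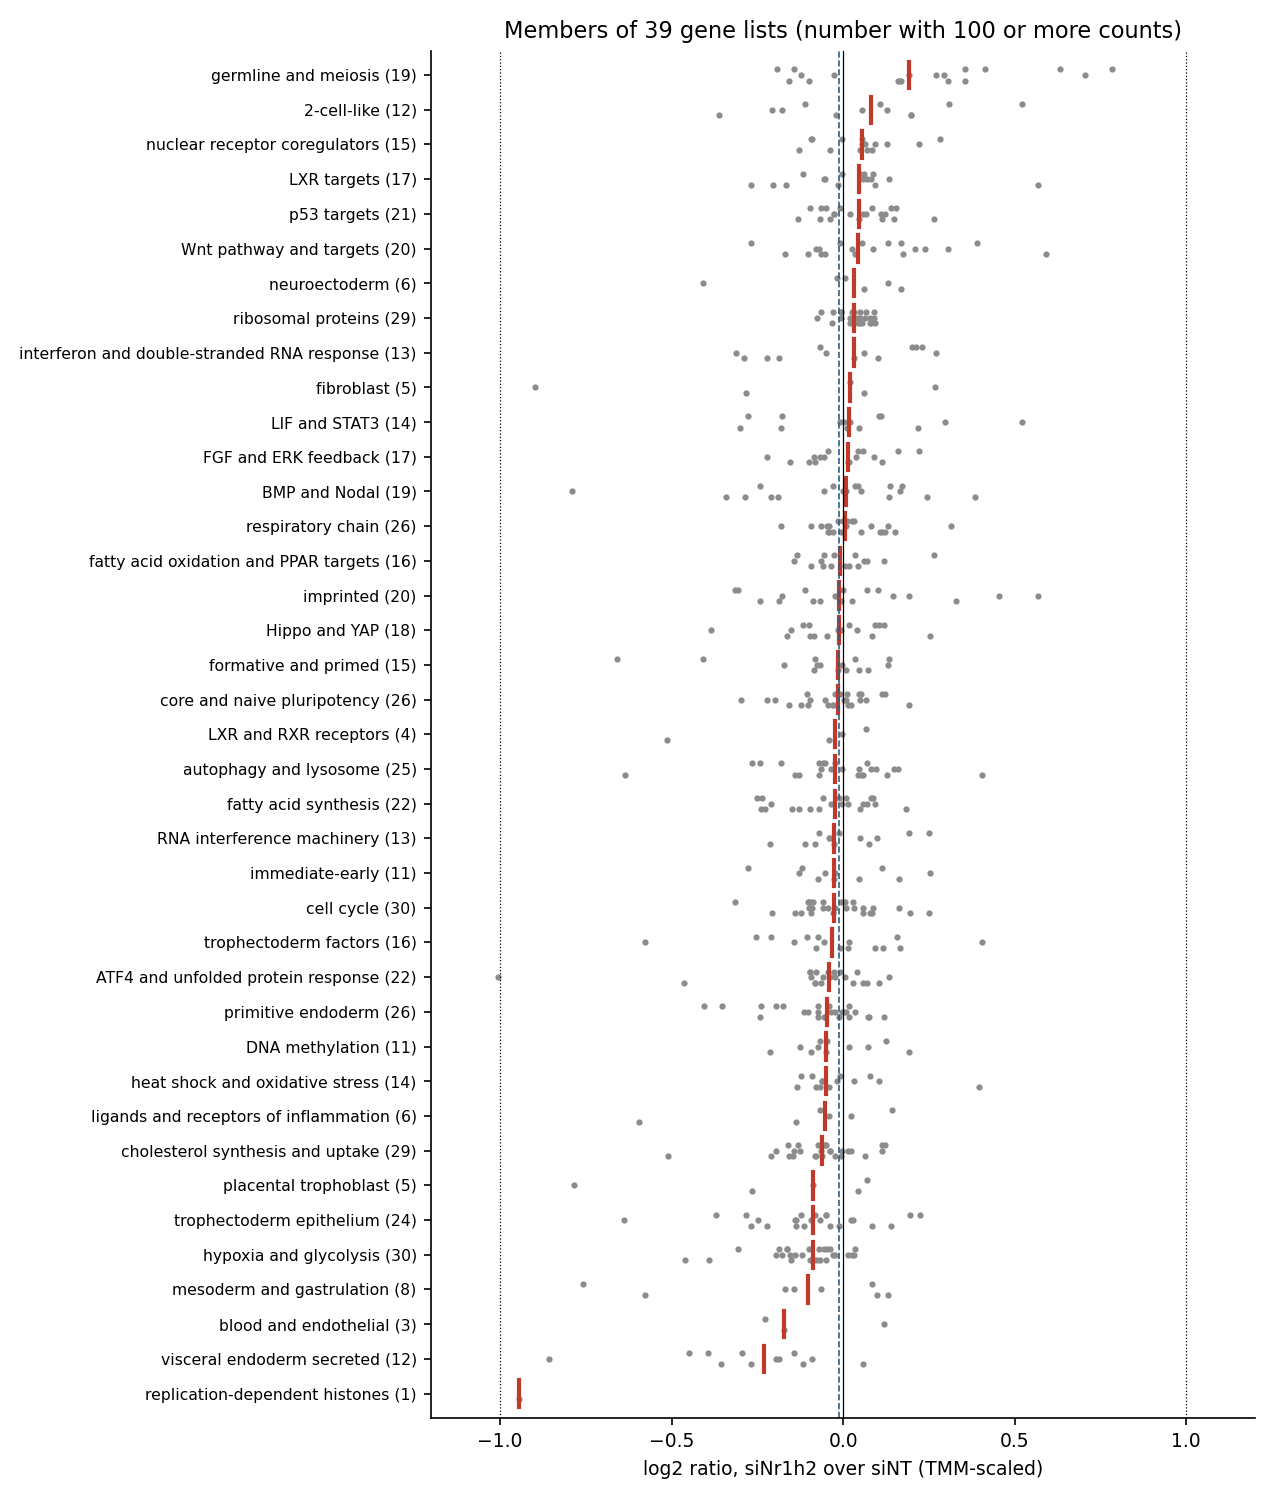
Log2 ratio of siNr1h2 over siNT for each counted member (grey points) of the 39 lists, with each list's median (red bars), the median of all genes (dashed line) and 2-fold (dotted lines). The germline list lies furthest above 0 and the visceral endoderm list furthest below among lists with more than 3 counted members.

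Listed genes of the visceral endoderm, the nutritive layer around the early embryo that descends from primitive endoderm, were mostly lower in siNr1h2. Of 12 counted genes, 11 were below 0, 9 had an interval below a ratio of 1 and 0 above, and the median was -0.23. Among all genes tested 21.8% had an interval below. Apoa1, the main protein of HDL, had 92 counts in siNr1h2 and 252 in siNT, or 3.51 and 6.40 CPM, a log2 ratio of -0.86 [-1.23, -0.52]. It had 0 counts in EPSC, so the siNT level was at least 81.5-fold higher than in EPSC and the siNr1h2 level at least 44.7-fold, against a floor of 3 counts in that library. At day 5 it was at 23.4 and 28.2 CPM.

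Apob, the core protein of LDL, was the best counted of the clearly lower members, with 2489 and 4913 counts. It was at 94.9 CPM in siNr1h2 and 125 in siNT, a log2 ratio of -0.39 [-0.47, -0.33], against 0.445 in EPSC and 972 and 1028 at day 5. The vitamin A carrier gene Rbp4 was at -0.45 [-0.91, -0.02] and Ttr, the thyroid hormone carrier gene, at -0.36 [-0.65, -0.07]. The protease gene Ctsh, the Wnt inhibitor gene Dkk1 and the endocytic partner gene Amn followed at -0.30, -0.27 and -0.20. Mttp, which loads lipid on apolipoproteins, was at -0.14 [-0.24, -0.04]. Trf, the transferrin gene, was the 1 member above 0, at 0.06 with an interval that included 0. Apoa1 and Rbp4 reached 100 counts in siNT alone, where they were higher.

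**Figure D5:**
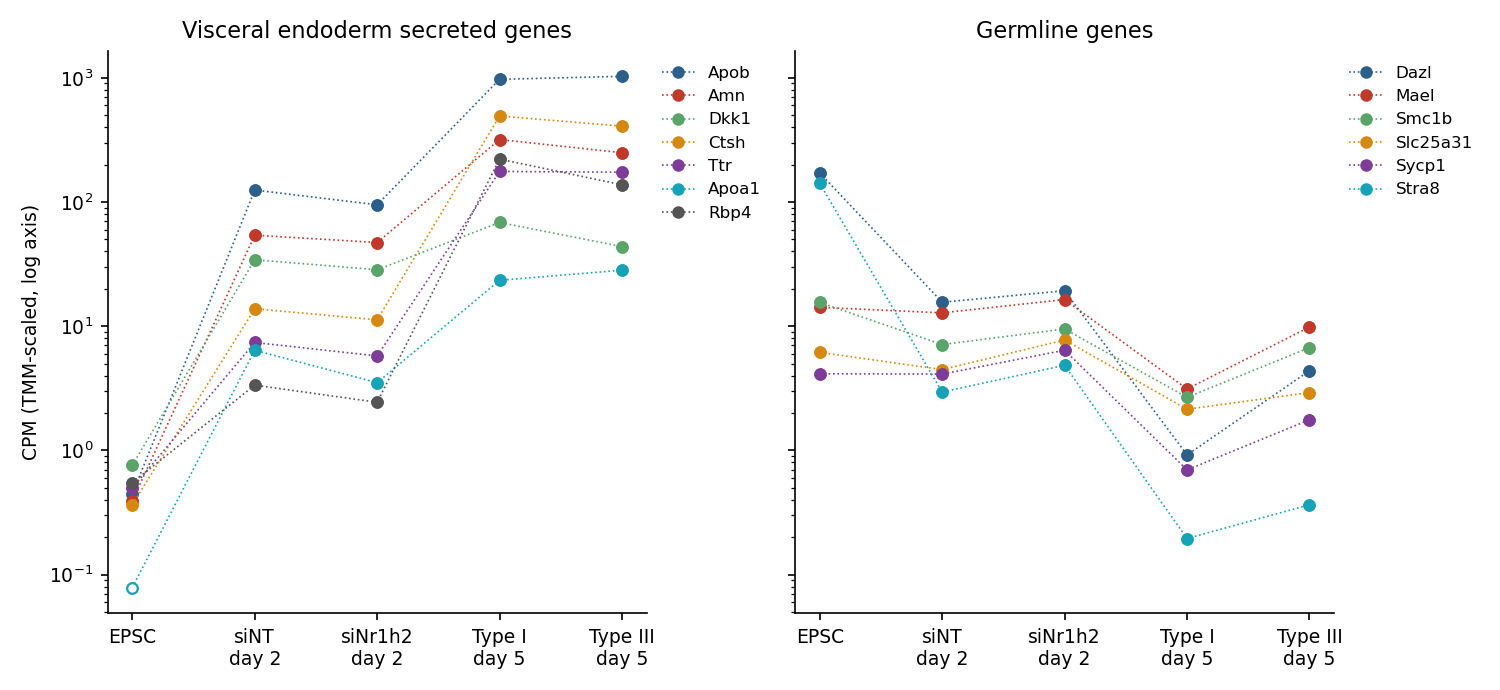
TMM-scaled CPM on a log axis of 7 visceral endoderm genes (left) and 6 germline genes (right) in EPSC, siNT, siNr1h2, Type I and Type III. The open circle is the floor of 3 counts for Apoa1, which had 0 counts in EPSC, and the genes shown were picked for being lower (left) or higher (right) in siNr1h2 than in siNT.

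The primitive endoderm list itself lay nearer 0. Of 26 genes, 18 were below 0 and the median was -0.05. Intervals lay below a ratio of 1 in 10 and above in 0, beside 21.8% and 17.2% of all genes. The transcription factor genes that define the lineage were at like levels, with Gata6 at 95.1 CPM in siNr1h2 and 92.8 in siNT, Gata4 at 106 and 110, Sox17 at 37.2 and 38.6, and the receptor gene Pdgfra at 109 and 112. Lower were the forkhead gene Foxa2, at -0.40 [-0.62, -0.20], the parathyroid hormone receptor gene Pth1r, at -0.35 [-0.49, -0.22], the endocytic adaptor gene Dab2, at -0.24 [-0.28, -0.20], and Sox7, at -0.17 [-0.28, -0.07]. The basement membrane genes Lama1, Lamb1 and Lamc1 were within 0.02 of 0, and Col4a1 was at -0.07.

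Germline and meiosis genes were the list furthest above 0. Of 19 counted members, 13 were above 0, 10 intervals lay above a ratio of 1 and 2 below, 3 passed 1.5-fold, all higher, and the median was 0.19. Over all genes 46.3% were above 0, 17.2% of intervals lay above and 0.791% passed 1.5-fold higher. Slc25a31, a germ cell ADP/ATP carrier gene, was at 7.74 CPM in siNr1h2 and 4.47 in siNT, a log2 ratio of 0.78 [0.49, 1.09]. Stra8, the gene that starts meiosis, had 127 and 116 counts and lay at 0.71 [0.34, 1.09], and the synaptonemal gene Sycp1 was at 0.63 [0.32, 0.96]. Smc1b, Mael, Taf7l and Dazl were higher by 0.31 to 0.41. The Piwi gene Piwil2 was lower, at -0.19 [-0.37, -0.02]. Stra8 was at 141 CPM in EPSC and Dazl at 171, well above both day 2 libraries. Slc25a31 was at 6.15 CPM in EPSC and Sycp1 at 4.14.

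Trophectoderm, the outer layer of the blastocyst, showed small differences in its factors. Of 16 counted factor genes 7 were above 0 and the median was -0.03. Cdx2, which sets the lineage, was at 29.8 CPM in siNr1h2 and 31.5 in siNT, and Gata3 at 7.55 and 6.96, with intervals that included 0. Hand1, a factor of trophoblast and mesoderm, was lower, with 103 and 232 counts and a log2 ratio of -0.58 [-0.93, -0.24], and Tfap2a was higher, at 0.41 [0.22, 0.60]. Gcm1, a factor of the placental labyrinth, had a ratio of -0.79 [-1.20, -0.41] at 2.94 and 5.11 CPM. Gcm1 reached the count minimum in siNT alone, where it was higher.

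Of 24 epithelial genes of that layer, 18 were below 0, 11 intervals lay below a ratio of 1 and 4 above, beside 21.8% and 17.2% of all genes, and the median was -0.09. The tight junction genes Cldn7, Cldn4 and Cldn6 were at -0.64 [-0.89, -0.40], -0.28 [-0.41, -0.15] and -0.22 [-0.30, -0.14]. The scaffold gene Tjp1 of the same junctions was higher, at 0.14 [0.09, 0.19], and so was the desmosome gene Dsp, at 0.23 [0.11, 0.34]. The keratin genes Krt8 and Krt18 were at 0.09 and -0.14. The list had a median transcript length of 2269 bases, and the part of length in these ratios was not tested.

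The pluripotency network hardly differed. Of 26 genes, 12 were above 0, and the median was -0.02. Pou5f1 was at 973 CPM in siNr1h2 and 993 in siNT, Nanog at 175 and 176, and Sox2 at 250 and 267. Prdm14 was at -0.30 with an interval of -0.67 to 0.05, Fgf4 at -0.22 [-0.31, -0.14] and Tet2 at 0.19 [0.12, 0.26]. Fgf5, a gene of the formative epiblast, was at 2.14 and 3.40 CPM, a ratio of -0.66 [-1.15, -0.21], on few counts. It reached the count minimum in siNT alone, where it was higher.

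Among signalling lists, Nkx1-2, a homeobox gene in the Wnt list, was higher, with 518 and 515 counts or 19.8 and 13.1 CPM, a log2 ratio of 0.59 [0.42, 0.77]. It had 0 counts in EPSC. The Wnt feedback gene Axin2 was at 0.18 [0.10, 0.25], the Wnt target Apcdd1 at 0.39 [0.10, 0.69], and the inhibitor gene Dkk1 at -0.27 [-0.40, -0.14]. Of 20 Wnt genes 12 were above 0. In the BMP and Nodal list, with 10 of 19 above 0, Bmp7 was at -0.79 [-1.29, -0.35], Nodal at -0.24 [-0.32, -0.16] and the receptor gene Bmpr1a at 0.24 [0.18, 0.31]. Bmp7 reached the count minimum in siNT alone, where it was higher. Socs3, the feedback inhibitor of LIF signalling, was at 0.52 [0.32, 0.73], whereas Stat3 was at -0.18 [-0.31, -0.05].

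Of 30 glycolysis and hypoxia genes, 15 had an interval below a ratio of 1 and 0 above, beside 21.8% and 17.2% of all genes, and the intervals of the rest included a ratio of 1. In all 26 were below 0 and 4 above, and the median was -0.09. Aldoa was at -0.16, Tpi1 at -0.14, Ldha at -0.12 and Gapdh at -0.07, each on more than 5000 counts, and Aldoc was furthest, at -0.46 [-0.77, -0.17]. Ribosomal protein genes were slightly higher, with 22 of 29 above 0 and a median of 0.03. Differences this small have no replicate to be set against.

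Response to foreign RNA and stress was described because siRNA was transfected on both sides. Interferon and double-stranded RNA response genes had a median of 0.03, with 7 of 13 above 0. Irf3, described above, is not in that list. Eif2ak2, the kinase that senses double-stranded RNA, was at 0.23 [0.09, 0.37], while Irf1 was at -0.29 [-0.50, -0.08] and H2-K1 at -0.31 [-0.44, -0.18]. Of 30 members 17 had under 100 counts on both sides, Ifnb1 with 0 counts in both. RNA interference machinery had a median of -0.03 over 13 genes, with Ago2, the slicing Argonaute gene, at 0.10 [0.03, 0.16]. The p53 targets had a median of 0.05 over 21 genes, with 5 intervals above a ratio of 1 and 2 below. Among all genes 17.2% lay above and 21.8% below. Among them Trp53inp1 was at 0.27 [0.23, 0.30], Zmat3 at 0.15 [0.09, 0.21], and Cdkn1a, which stops the cell cycle, at -0.13 [-0.20, -0.06]. In the ATF4 list, with 15 of 22 below 0, Chac1 and Trib3 were lower, at -1.01 [-1.60, -0.50] and -0.46 [-0.77, -0.17], while Atf4 itself was at 0.10. Chac1, like the other lower calls, reached 100 counts in siNT alone.

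Other list members stood out singly. Lipa, the lysosomal lipase gene that frees cholesterol from its esters, was at 8.81 CPM in siNr1h2 and 13.7 in siNT, a log2 ratio of -0.64 [-0.87, -0.41], in a lysosome list of 25 genes with a median of -0.02. Tfeb, the factor that drives lysosome genes, was higher, at 0.40 [0.25, 0.56]. The imprinted genes Ndn and Kcnq1ot1 were higher, at 0.57 [0.33, 0.81] and 0.45 [0.30, 0.61], while Cdkn1c and Mirg were lower, at -0.32 and -0.31. The vascular receptor gene Kdr was at -0.76 [-1.30, -0.28] and the smooth muscle gene Tagln at -0.90 [-1.37, -0.48]. Kdr and Tagln reached the count minimum in siNT alone, where they were higher. Zscan4d, a gene of the 2-cell-like state, was at 0.52 [0.35, 0.70], and Zscan4a and Zscan4f at 0.20 each, but these copies resemble each other and the counts given to each are uncertain.

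A wider look used genes that were at least 4-fold higher or lower in both day 5 blastoid libraries than in both EPSC libraries, a choice that uses neither day 2 library and was made after the data were seen. The 641 counted genes higher at day 5 had a median log2 ratio of -0.04 in siNr1h2 over siNT, with 43.7% above 0. Their intervals lay below a ratio of 1 in 25.7% and above it in 13.1%, beside 21.8% and 17.2% of all genes. The 365 genes lower at day 5 had a median of -0.02, with 46.0% above 0, 18.1% of intervals below and 17.5% above. Both medians were thus within 0.05 of that of all genes.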

How the data were processed

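Counts per gene symbol were deposited by the authors as whole numbers for 24888 symbols, 1 column per library, and the values are raw. STAR, HTSeq, Cuffnorm and mm9 are named in the submitters' processing notes, without versions or roles, and whether counting used strand is not given in the sources used here. The labels' protocols name a directional kit, so antisense and overlapping genes may share counts, as may near-identical copies. Counts were scaled with TMM factors (edgeR 4.0.16, R 4.3.3). Log2 ratios used a prior count of 2 and a 95% exact Clopper-Pearson interval on the 2 counts, which covers counting error only. The interval treats each count as separate, although PCR copies cannot be told from separate molecules. A level of 0 allows up to 0.0741 to 0.114 CPM, taken as 3 counts. With 1 library a group no test, SD or leave-one-out was possible.

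Members and lists were chosen with earlier results of these data known, and all 39 lists are shown in the plot of list members. Of 757 list symbols 9 had no match. A counted gene has at least 100 counts in 1 of the 2 libraries. Named were the 15 higher and 15 lower genes with interval bounds furthest from 0, leaving out predicted genes, up to 4 members per list with the largest ratio, fixed LXR and lineage genes, and genes nearest 2-fold. Further members are named as examples after their values were seen. Some genes that this rule names are not reported here. A gene that reaches 100 counts only in the library where it is higher is selected for that direction. Promoters came from RefSeq and transcript lengths from GENCODE M21 (11445 of 11503 genes), both of a later build than mm9, matched by symbol. Alternatives covered scaling, count minimum, fold, prior count, thinning and an assumed biological coefficient of variation of 0.2.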

Additional observations from a re-analysis of the deposited data

How the results depend on the processing

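The numbers of genes past 2-fold depend on the count minimum and the fold. With 9 higher and 23 lower in the values reported, a minimum of 20 counts gave 210 higher and 307 lower, no minimum 607 and 527, and a minimum of 500 gave 2 and 0. At 1.5-fold there were 91 and 138, and at 4-fold 0 and 0. A prior count of 10 left 6 higher and 13 lower, and thinning siNT to the siNr1h2 depth left 6 lower, through fewer genes past the count minimum. Other scalings, a prior count of 0.5 and an assumed biological variation gave 8 to 12 higher and 20 to 25 lower. The other scalings moved the median of all genes by at most 0.0128 on the log2 scale and left all 39 list medians close to the value reported. The blood and endothelial list median became 0.12 at a minimum of 500, and that of the histone list 0.32 at a minimum of 20, each because other genes enter or leave, and no histone gene reached 500. Under 3 other scalings and prior counts of 0.5 and 10, 1079 values of the 216 named genes stayed within their counting intervals, 1 moved just past it (Rn45s with DESeq2-type size factors, at 1.65), and 0 reversed. No paired analysis was possible because each group has 1 library and the labels carry no replicate numbers. Leaving out a library would leave no comparison.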
